A study of Mus musculus with 35 samples.

Results

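Astrocytes are the glial cells that tile the cortex, wrap synapses and blood vessels, clear glutamate and potassium after firing and pass metabolites to neurons. Their connexins join them into networks through gap junctions, their water channels sit on the endfeet around vessels, and their glutamate transporters take up released transmitter. Acetate, which bacteria in the gut release, can be burned by glia as a fuel. This account describes 10 genes that mark astrocytes, chosen by name, of 14870 genes measured: the connexins Gjb6 and Gja1, the water channel Aqp4, the glutamate transporters Slc1a2 and Slc1a3, the enzymes Aldh1l1 and Aldoc, the amino acid exchanger Slc7a10, the intermediate filament Gfap and the calcium-binding protein S100b. All 10 were present in the deposited matrix.

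RNA was sequenced from bulk punches of the medial prefrontal cortex (mPFC) of wild-type (WT) and Shank3-deficient (KO) mice, which received water (control), antibiotics (abx), acetate or both (abx_and_acetate). On water there were 6 WT libraries (WT_control) and 4 KO libraries (KO_control). With antibiotics there were 4 (WT_abx) and 3 (KO_abx), with acetate 5 of each genotype (WT_acetate and KO_acetate), and with both agents 4 of each (WT_abx_and_acetate and KO_abx_and_acetate). By label 15 libraries were female and 20 male. For the Shank3 allele, the age of the mice, the antibiotics, the doses and the duration, the details were not given in the sources used here. Whether every library is a different mouse is not stated, and p-values therefore reflect only the variation among these libraries, part of which may be technical. The number after a group's name only tells libraries apart.

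Effective library sizes ran from 12.7 M to 28.5 M reads, and the 10 genes rested on 498 to 71042 reads per library. In log2 CPM (log2 of the counts scaled to library size), the 16 KO libraries held Shank3 at 4.07 to 5.11, and the 19 labelled WT at 7.48 to 8.85. In 3 of those, labelled WT_acetate 2, WT_acetate 5 and WT_abx 4, Shank3 and its neighbour Acr lay between the genotypes. Y-linked genes went against the sex label in 4 libraries, labelled WT_acetate 2, WT_acetate 4, WT_acetate 5 and WT_abx 3. In KO_acetate 1 the score of 9 striatal neuron markers (the mean log2 deviation of a list from its average over libraries) was 2.92, against at most 0.25 elsewhere, and the score of 14 oligodendrocyte markers was 1.81. KO_control 1 had the highest score for reactive astrocyte genes (1.07), not far above the highest of WT_abx (0.907). The library labelled WT_abx 4 had the highest for meningeal fibroblast markers (2.25) and choroid plexus markers (3.65). These 3 libraries (KO_acetate 1, KO_control 1 and that labelled WT_abx 4) are given below as standing apart.

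The punches held the RNA of many cell types, and the astrocyte identity of the genes was checked only against other genes listed for these cells. Levels were compared between genes per length, as CPM per kilobase of exon (RPKM, with the union of GENCODE vM21 exons, whose untranslated parts the authors' counting may have treated otherwise). Aldoc, the glycolytic aldolase of astrocytes, stood highest at 233 ± 27.3 RPKM (SD over 35 libraries), followed by the main glutamate transporter Slc1a2 at 188 ± 22.7 and the second transporter Slc1a3 at 61.3 ± 6.62. Each of these 3 exceeded the next gene in all 35 libraries. S100b had 29.8 ± 4.9 RPKM, Gfap 24.8 ± 6.8, Gjb6 22.4 ± 6.24, Slc7a10 16.6 ± 3.2, Gja1 16.1 ± 2.64, Aldh1l1 15.6 ± 2.25 and Aqp4 12.7 ± 2.48. Slc7a10 exceeded Gja1 in 18 of 35 libraries and Gja1 exceeded Aldh1l1 in 19, so the order of these neighbours did not hold beyond their spread. S100b exceeded Gfap in 28 libraries and Gfap exceeded Gjb6 in 25, with ranges that overlapped.

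**Figure D1:**
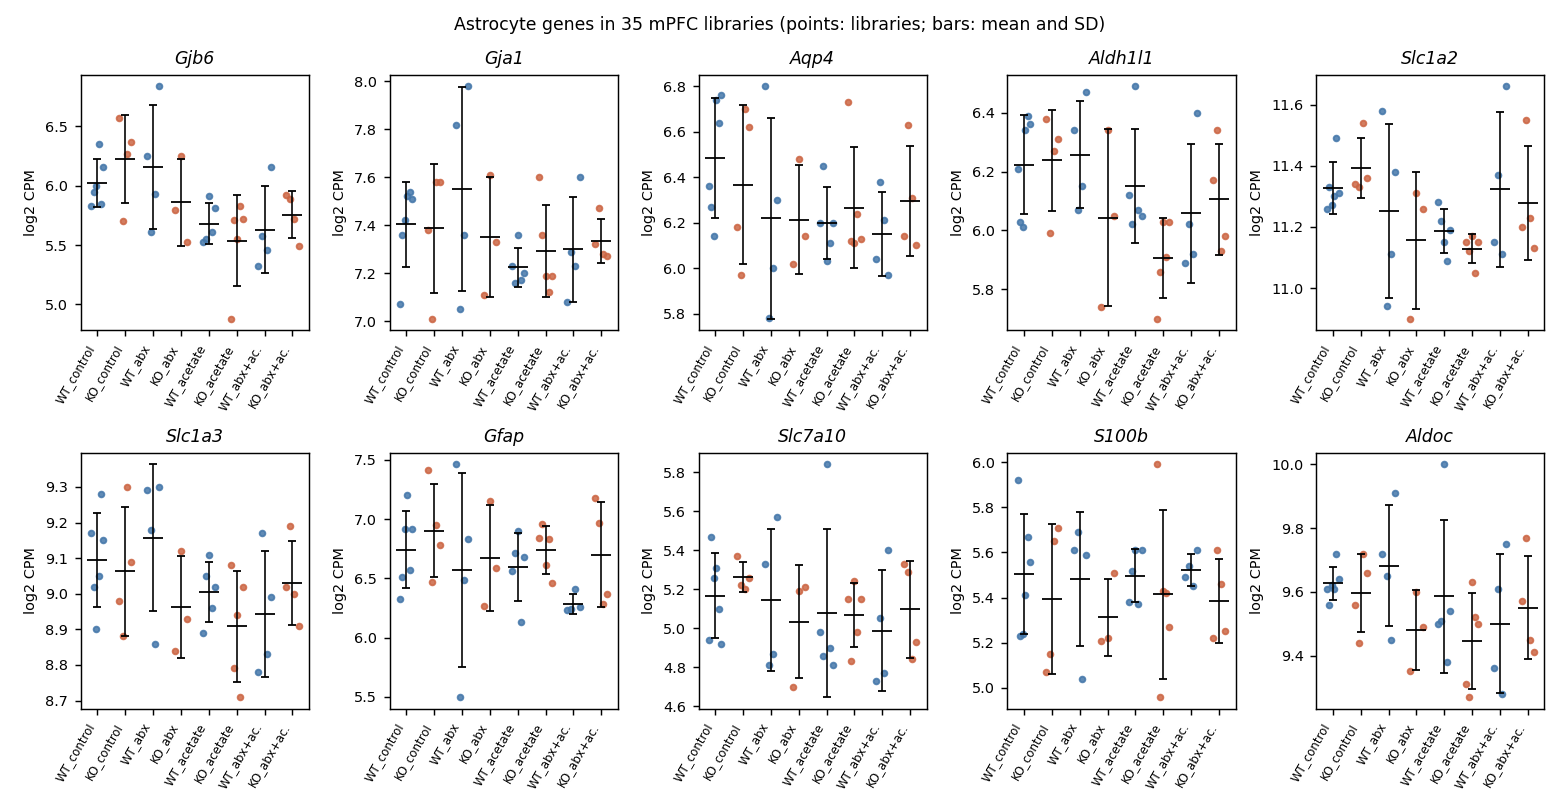
Levels of the 10 astrocyte genes in 35 libraries. Each panel gives log2 CPM (y axis, scaled per gene) for the 8 groups, with WT libraries in blue, KO libraries in orange, and bars at the mean and SD. Only Slc1a2 had treated and control libraries that did not overlap (KO_control against KO_abx and KO_acetate), and Gjb6 ran from 4.88 in KO_acetate 1 to 6.84 in the library labelled WT_abx 4.

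None of the 10 genes passed the threshold, an adjusted p under 0.05 by limma, in any of 16 comparisons of genotype, treatment and their interaction. At an unadjusted p under 0.05 there were 6 results: Aldh1l1 between genotypes under acetate, Gjb6 in abx_and_acetate against abx in WT, Gjb6, Aldh1l1 and Slc1a2 in acetate against control in KO, and Gjb6 in abx_and_acetate against control in KO. In all 6 the log2 fold was below 0. In bulk tissue, fewer astrocytes and less RNA per astrocyte cannot be told apart. Comparisons with control within a genotype share their control libraries, and abx_and_acetate is set against both control and abx, so their folds are given side by side and are not independent. Genes of a list were read in the same libraries and can vary together, so counts of genes below 0 are not counts of independent observations.

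Between genotypes, 0 of 10 genes were called in each treatment, where limma called 0.0202% of all genes in control, 0.0134% under abx, 0.00672% under acetate, 0.0134% under abx_and_acetate and 0.0202% over treatments. At an unadjusted p under 0.05 the counts of the 10 genes were 0, 0, 1, 0 and 0, against 4%, 3.78%, 5.97%, 3.7% and 5.25% of all genes in the same order. The ranges of KO and WT libraries overlapped for all 10 genes in each treatment, while they did not overlap for 0.773% of genes in control, 5.33% under abx, 0.491% under acetate and 3.15% under abx_and_acetate. The median log2 fold of the 10 genes was 0.00 in control, with 5 genes above and 5 below 0. It was -0.16 under abx (8 below), -0.09 under acetate (7 below), 0.02 under abx_and_acetate (4 below) and -0.05 over treatments (7 below). Over all genes the median was 0.00 in each. Without the library labelled WT_abx 4 the median under abx was -0.062, and without the library labelled WT_abx 3 it was -0.259. Leaving out KO_acetate 2 took the median under acetate to -0.032. Leaving out all libraries in doubt took it to -0.139, with only WT_acetate 1 and WT_acetate 3 left of WT_acetate. The median under abx_and_acetate changed sign, to -0.042, without KO_abx_and_acetate 1, and that over treatments was -0.100 without the libraries with a Y-linked mismatch, -0.086 without KO_abx 2 and -0.021 without WT_abx_and_acetate 4.

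In WT, 0 of 10 genes were called for abx, acetate and abx_and_acetate against control and for abx_and_acetate against abx, beside 0%, 0.00672%, 0.726% and 0% of all genes. Their counts at an unadjusted p under 0.05 were 0, 0, 0 and 1, beside 9.05%, 9.41%, 14.4% and 6.12% of all genes. No gene of the 10 had groups that did not overlap, against 2.14%, 1.65%, 4.73% and 3.07% of all genes. The median log2 fold of the 10 was 0.01 for abx (5 below 0), -0.10 for acetate (9 below), -0.14 for abx_and_acetate (8 below) and -0.17 for abx_and_acetate against abx (8 below). Leaving out 1 library, these medians ran from -0.056 (the library labelled WT_abx 4) to 0.123 (the library labelled WT_abx 3) for abx, from -0.150 (WT_acetate 3) to -0.058 (the library labelled WT_acetate 4) for acetate, from -0.193 to -0.091 (WT_abx_and_acetate 1) for abx_and_acetate and from -0.260 (WT_abx_and_acetate 4) to -0.092 (WT_abx 1) for abx_and_acetate against abx. Without the libraries with a Y-linked mismatch the median for acetate was -0.023, with only WT_acetate 1 and WT_acetate 3 left of WT_acetate.

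In KO, 0 of 10 genes were called in the same 4 comparisons, beside 0.0134%, 0%, 0% and 0% of all genes. Here the counts at an unadjusted p under 0.05 were 0, 3, 1 and 0 of 10, beside 3.3%, 13%, 7.42% and 2% of all genes. Slc1a2 was the only member whose groups did not overlap, for abx against control (3.85% of all genes) and for acetate against control (3.31%). No member had groups apart for abx_and_acetate against control (3.83% of genes) or against abx (5.14%). The median log2 fold was -0.16 for abx, with all 10 genes below 0, and -0.16 for acetate, with 9 below. It was -0.12 for abx_and_acetate, again with all 10 below 0, and 0.03 for abx_and_acetate against abx, with 2 below. The median for abx was -0.049 without KO_abx 1 and -0.298 without KO_abx 2, that for abx_and_acetate was -0.067 without KO_control 3 and -0.210 without KO_abx_and_acetate 2, and that for abx_and_acetate against abx was -0.068 without KO_abx 1 and 0.140 without KO_abx 2. For acetate, leaving out 1 library gave -0.212 to -0.125. The median over all genes lay between 0.00 and 0.01, where 48.5% to 50.4% of genes were below 0.

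For the interactions, the treatment fold in KO minus that in WT, 0 of 10 genes were called and limma called 0% of all genes for abx, 0% for acetate and 0% for abx_and_acetate. None of the 10 reached an unadjusted p under 0.05, against 2.47%, 3.65% and 4.53% of all genes. The median difference of the 10 was -0.16 for abx, -0.09 for acetate and 0.00 for abx_and_acetate. Leaving out KO_abx 1 or KO_abx 2 gave -0.053 or -0.268 for abx, leaving out WT_acetate 3 gave 0.014 for acetate, and leaving out WT_abx_and_acetate 1 or WT_abx_and_acetate 4 gave -0.071 or 0.088 for abx_and_acetate. No difference between the genotypes in their treatment folds was detected for any of the 10.

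**Figure D2:**
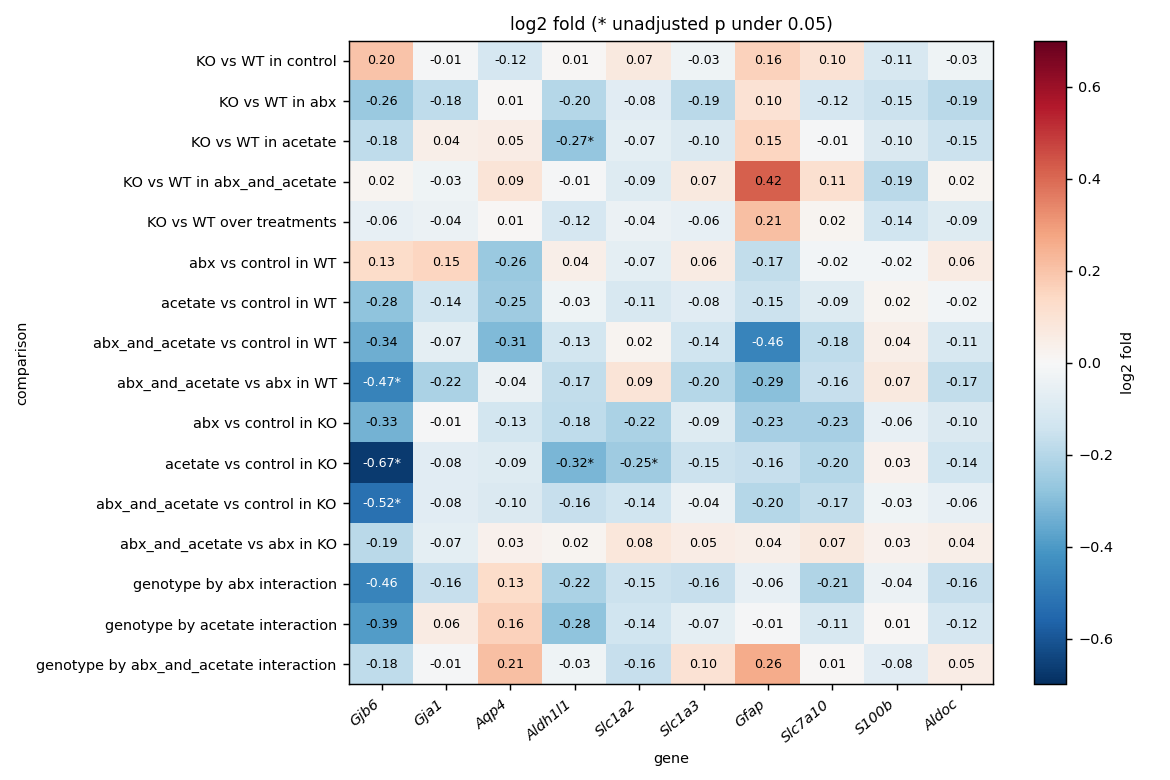
The log2 fold of each of the 10 genes (columns) in the 16 comparisons (rows) from 1 limma fit, with the colour running from blue (below 0) to red (above 0) and a star at an unadjusted p under 0.05. Gjb6 holds 3 of the 6 stars, with -0.67 in acetate against control in KO as the lowest value, and no cell passed the adjusted threshold.

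Gjb6 encodes connexin 30, which appears in astrocytes as they mature and forms gap junctions between them. The gene spans chr14:57123303-57133611 on the minus strand (GRCm38, GENCODE vM21). On the log2 CPM scale it lay at 6.57, 5.70, 6.27 and 6.37 in KO_control and at 4.88, 5.71, 5.55, 5.83 and 5.72 in KO_acetate. Only KO_control 2 fell within the range of the acetate libraries, and KO_acetate 1 was the lowest of all 35 libraries. The log2 fold was -0.67 ± 0.20 (SE), 1.59-fold lower in KO_acetate (unadjusted p = 0.00214, limma adjusted p = 0.205, 95% interval -1.08 to -0.26). Without KO_acetate 1 it was -0.53, without KO_control 1 it was -0.51, and without the 3 libraries that stand apart it was -0.38 (unadjusted p = 0.0405, adjusted p = 0.71). Its adjusted p ran from 0.154 to 0.71 over the alternatives.

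In KO_abx_and_acetate Gjb6 lay at 5.92, 5.89, 5.72 and 5.49 log2 CPM, again with only KO_control 2 inside the range. The log2 fold against KO_control was -0.52 ± 0.21 (unadjusted p = 0.0198, limma adjusted p = 0.583), and -0.37 without KO_control 1 (unadjusted p = 0.0968). KO_abx lay between, at 5.80, 6.25 and 5.53, with a log2 fold of -0.33 ± 0.23 against KO_control (unadjusted p = 0.154). That fold was -0.07 without KO_abx 3, -0.56 without KO_abx 2 and -0.17 without KO_control 1. Acetate added to abx in KO gave -0.19 ± 0.23 (unadjusted p = 0.422), a value whose sign depended on the fit.

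WT_control held Gjb6 at 5.83 to 6.35 log2 CPM (median 5.98) and WT_acetate at 5.53, 5.55, 5.91, 5.61 and 5.81. The 2 groups overlapped through WT_acetate 3 alone, and the log2 fold was -0.28 ± 0.18 (unadjusted p = 0.132, limma adjusted p = 0.661), or -0.18 without the libraries with a Y-linked mismatch. WT_abx ran widely, at 6.25, 5.61, 5.93 and 6.84, and WT_abx_and_acetate lay at 5.32, 5.58, 5.46 and 6.16. Their log2 fold was -0.47 ± 0.21 (unadjusted p = 0.0324, adjusted p = 0.787), and -0.29 without the library labelled WT_abx 4 (unadjusted p = 0.183). Gjb6 in abx_and_acetate against control in WT was at -0.34 ± 0.19 (unadjusted p = 0.087).

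Between genotypes Gjb6 had a log2 fold of 0.20 ± 0.19 in control (unadjusted p = 0.299), which was 0.05 without KO_control 1 and 0.35 without KO_control 2. It was -0.26 ± 0.23 under abx, -0.18 ± 0.19 under acetate and 0.02 ± 0.22 under abx_and_acetate. The interaction with abx was -0.46 ± 0.30 (unadjusted p = 0.128) and that with acetate -0.39 ± 0.27 (unadjusted p = 0.162, limma adjusted p = 0.997). Without the libraries that stand apart these were -0.13 and -0.09, and without KO_abx 2 the former was -0.69 (unadjusted p = 0.0309). The Gjb6 fold with acetate was not shown to differ between the genotypes.

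Gja1 encodes connexin 43, the other main gap junction protein of astrocytes. Its group means ran from 7.22 ± 0.08 log2 CPM in WT_acetate to 7.55 ± 0.43 in WT_abx (SD), a span of 0.33, against 0.69 for Gjb6. Acetate against control gave a log2 fold of -0.08 ± 0.14 in KO and -0.14 ± 0.13 in WT. The most uneven group was WT_abx, at 7.82, 7.05, 7.36 and 7.98. Its log2 fold against WT_control was 0.15 ± 0.13 (unadjusted p = 0.279), and 0.02 without the library labelled WT_abx 4, the highest of all for Gja1, or 0.30 without WT_abx 2 (unadjusted p = 0.0326). Of 8 other connexin genes, which are expressed by oligodendrocytes, neurons or vessels, 0 were called in acetate against control in KO and 4 lay above and 4 below 0 (median 0.01), among them the oligodendrocyte connexin Gjb1 (0.67 ± 0.46, unadjusted p = 0.158).

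Aqp4, the water channel of the endfeet, had its highest mean in WT_control, at 6.48 ± 0.26 log2 CPM (SD), with libraries from 6.14 to 6.76 and a median of 6.5. The other WT groups lay lower, at 6.22 ± 0.44 in WT_abx, 6.2 ± 0.16 in WT_acetate and 6.15 ± 0.18 in WT_abx_and_acetate. The log2 folds against WT_control were -0.26 ± 0.17 (unadjusted p = 0.122), -0.25 ± 0.16 (unadjusted p = 0.12) and -0.31 ± 0.17 (unadjusted p = 0.0781, limma adjusted p = 0.413). The first was -0.49 without WT_abx 1 (unadjusted p = 0.00454, adjusted p = 0.243) and -0.11 without all libraries in doubt (unadjusted p = 0.632), and the last was -0.20 without WT_abx_and_acetate 4. All 3 rest on the same 6 control libraries, and every treated group overlapped them. In KO the folds were smaller in size, at -0.13 ± 0.20, -0.09 ± 0.17 and -0.10 ± 0.18, but the interactions did not pass: for abx_and_acetate the difference was 0.21 ± 0.25 (unadjusted p = 0.417), and 0.09 without WT_abx_and_acetate 4. KO_acetate 1 held Aqp4 at 6.73, while the other KO_acetate libraries lay at 6.11 to 6.24.

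Of 12 genes that serve the endfeet and ion balance, 11 lay below 0 in acetate against control in KO, 0 were called and 3 had an unadjusted p under 0.05 (median -0.09), where 50.4% of all genes lay below 0 and 13% had such a p. Without KO_control 1, 10 of the 12 lay below 0 and 0 had such a p. The chloride channel Clcn2 was at -0.42 ± 0.18 (unadjusted p = 0.0269) and agrin, Agrn, at -0.26 ± 0.11 (unadjusted p = 0.0275). In abx_and_acetate against control in WT, 11 of the 12 again lay below 0 (median -0.10, 49.9% of all genes). The dystrobrevin Dtna was at -0.17 ± 0.08 there (unadjusted p = 0.0321), where 14.4% of all genes had an unadjusted p under 0.05. Some genes of this list are also in the wider astrocyte list below.

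Slc1a2 (chr2:102658659-102790784, plus strand) encodes GLT-1, the transporter that takes up most of the glutamate released in the forebrain. KO_control libraries lay at 11.34, 11.33, 11.54 and 11.36 log2 CPM, KO_abx at 10.90, 11.31 and 11.26 and KO_acetate at 11.15, 11.12, 11.17, 11.05 and 11.15. Every KO_control library was above every library of either treated group. The log2 fold was -0.25 ± 0.11 for acetate (1.19-fold lower, unadjusted p = 0.026, limma adjusted p = 0.325) and -0.22 ± 0.12 for abx (unadjusted p = 0.0864, adjusted p = 0.999). Quantile normalization took the fold for abx to -0.06, and leaving out KO_abx 1 took it to -0.11. The Slc1a2 fold for acetate was not read under the alternatives, so its dependence on the processing was not examined. KO_abx_and_acetate spanned 11.13 to 11.55 and overlapped the controls, with -0.14 ± 0.12.

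In WT, Slc1a2 lay at 11.26 to 11.49 in control (median 11.31) and at 11.28, 11.22, 11.15, 11.09 and 11.19 in WT_acetate, with a log2 fold of -0.11 ± 0.10. Only WT_acetate 1 reached into the control range. Genotype by acetate gave -0.14 ± 0.15, and genotype by abx_and_acetate gave -0.16 ± 0.16 (unadjusted p = 0.329), the latter -0.04 without WT_abx_and_acetate 4. Acetate added to abx gave 0.08 ± 0.13 in KO (unadjusted p = 0.517) and 0.09 ± 0.12 in WT.

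Slc1a3 encodes GLAST, the second astrocyte glutamate transporter. Its group means stayed between 8.91 ± 0.15 log2 CPM in KO_acetate and 9.16 ± 0.20 in WT_abx (SD). KO against WT under abx gave a log2 fold of -0.19 ± 0.11 (unadjusted p = 0.108, limma adjusted p = 0.995), and abx_and_acetate against abx in WT gave -0.20 ± 0.11 (unadjusted p = 0.0627, adjusted p = 0.825). Both use WT_abx, whose libraries lay at 9.29, 9.18, 8.86 and 9.30, the low one being the library labelled WT_abx 3. Without that library they were -0.29 (unadjusted p = 0.012, adjusted p = 0.771) and -0.31 (unadjusted p = 0.00552, adjusted p = 0.377). Without the 3 libraries of intermediate Shank3, among them that labelled WT_abx 4, they were -0.15 (unadjusted p = 0.25) and -0.16 (unadjusted p = 0.173). Of 11 other genes of the glutamate and glutamine cycle, 0 were called in acetate against control in KO, with 4 above and 7 below 0 (median -0.03). Those of smallest p were the aspartate aminotransferases Got1, at 0.16 ± 0.08 (unadjusted p = 0.0516), and Got2, at 0.12 ± 0.06 (unadjusted p = 0.0702).

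Aldh1l1 (chr6:90486427-90600203, plus strand) encodes a folate enzyme that labels nearly all astrocytes. It lay at 6.38, 5.99, 6.27 and 6.31 log2 CPM in KO_control and at 5.70, 5.86, 6.03, 5.91 and 6.03 in KO_acetate. As with Gjb6, only KO_control 2 fell within the acetate range. The log2 fold was -0.32 ± 0.12 (1.25-fold lower, unadjusted p = 0.0117, limma adjusted p = 0.283). It was -0.25 without KO_control 1 (unadjusted p = 0.0645) and -0.21 without the 3 libraries that stand apart (unadjusted p = 0.118). In KO_abx_and_acetate against KO_control it was -0.16 ± 0.13 (unadjusted p = 0.205), and -0.09 without KO_abx_and_acetate 3.

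WT_acetate held Aldh1l1 at 6.12, 6.02, 6.49, 6.07 and 6.05, with WT_acetate 3 the highest of all 35 libraries. Against these, KO_acetate had a log2 fold of -0.27 ± 0.11 (unadjusted p = 0.0232, adjusted p = 0.827). The libraries labelled WT_acetate 2, WT_acetate 4 and WT_acetate 5 are in doubt. Without all libraries in doubt the limma fold was -0.46 (unadjusted p = 0.00475, adjusted p = 0.727). Only WT_acetate 1 and the high WT_acetate 3 then remained of WT_acetate, so that fold rests in part on WT_acetate 3. Without WT_acetate 3 it was -0.18 (unadjusted p = 0.112) and without KO_acetate 1 it was -0.23 (unadjusted p = 0.0672). Over treatments the genotype fold was -0.12 ± 0.06 (unadjusted p = 0.0668, adjusted p = 0.957). It was -0.08 without KO_abx 1, -0.19 without the libraries with a Y-linked mismatch (unadjusted p = 0.00987, limma adjusted p = 0.538) and -0.18 without all libraries in doubt (unadjusted p = 0.0223, adjusted p = 0.611). The interactions were -0.28 ± 0.16 for acetate (unadjusted p = 0.0863) and -0.22 ± 0.18 for abx (unadjusted p = 0.233). Without all libraries in doubt the former was -0.48 (unadjusted p = 0.0173, limma adjusted p = 0.999), without WT_acetate 3 it was -0.19 (unadjusted p = 0.21), and without the 3 libraries that stand apart it was -0.18 (unadjusted p = 0.303). The latter was -0.08 without KO_abx 1 and -0.38 without KO_abx 2 (unadjusted p = 0.0364).

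Aldoc had group means from 9.45 ± 0.15 log2 CPM in KO_acetate to 9.68 ± 0.19 in WT_abx (SD), a span of 0.23. Between genotypes its log2 fold was -0.19 ± 0.12 under abx (unadjusted p = 0.121) and -0.15 ± 0.10 under acetate (unadjusted p = 0.145, limma adjusted p = 0.9). The former was -0.28 without the library labelled WT_abx 3 (unadjusted p = 0.0281) and -0.13 without that labelled WT_abx 4, and the latter was -0.05 without WT_acetate 3 and -0.34 without all libraries in doubt. That last fit kept only WT_acetate 1 and WT_acetate 3 of WT_acetate. Slc7a10 encodes Asc-1, which exchanges small neutral amino acids such as serine and glycine. Its means ran from 4.99 ± 0.31 in WT_abx_and_acetate to 5.26 ± 0.08 in KO_control. Its log2 folds stayed within -0.23 and 0.11 in all 16 comparisons. WT_acetate 3 was again the highest library, at 5.84, with 4.81 to 4.98 in the rest of its group.

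Gfap, the filament protein that rises in reactive astrocytes, varied most between libraries of a group. WT_abx alone held both extremes, at 7.46, 5.50, 6.49 and 6.83 log2 CPM, a 3.90-fold range, and WT_abx_and_acetate was the most even group, at 6.23, 6.24, 6.41 and 6.26. WT_control ran from 6.33 to 7.20 with a median of 6.74, so the ranges overlapped between 6.33 and 6.41. The log2 fold of abx_and_acetate against control in WT was -0.46 ± 0.25 (1.38-fold lower, unadjusted p = 0.0777, limma adjusted p = 0.411). KO_abx_and_acetate lay at 7.18, 6.97, 6.28 and 6.37, and KO against WT there was 0.42 ± 0.28 (unadjusted p = 0.147, adjusted p = 0.999). Without KO_abx_and_acetate 1 that fold was 0.22. Over treatments the genotype fold was 0.21 ± 0.13, with a value above 0 in each treatment and an adjusted p of 0.957.

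Of 31 genes listed as reactive astrocyte genes, 26 were measured and 0 were called. In acetate against control in KO, 25 of 26 lay below 0 (median -0.59), 8 with an unadjusted p under 0.05, among them the protease inhibitor Timp1 (-1.39 ± 0.53, unadjusted p = 0.0131) and the membrane protein Emp1 (-0.93 ± 0.35, unadjusted p = 0.0132). Of all genes 50.4% lay below 0 and 13% had such a p. Without KO_control 1, 23 of the 26 lay below 0 (median -0.21), 1 with an unadjusted p under 0.05, and without the 3 libraries that stand apart 22 did (median -0.24), again 1 with such a p. KO_control 1 had been picked for its high score on this same list, so a smaller fold without it was fixed in advance. KO_control scores ran from -0.257 to 1.07 and KO_acetate scores from -0.487 to -0.0649. In the same comparison the 8 meningeal fibroblast markers all lay below 0 (median -0.72, and -0.49 without KO_control 1), with scores of -0.458 to 0.887 in KO_control and -1.24 to 0.0039 in KO_acetate. Their part in the reactive list, many of whose genes vessels and meninges also express, was not tested. Gfap itself was at -0.16 ± 0.26 in this comparison.

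S100b encodes a calcium-binding protein of astrocytes that some oligodendrocytes also make. Its group means lay between 5.32 ± 0.17 log2 CPM in KO_abx and 5.52 ± 0.07 in WT_abx_and_acetate (SD), the smallest span of the 10, at 0.20. KO libraries had the lower mean in each treatment. The log2 folds were -0.11 ± 0.15 in control (unadjusted p = 0.473), -0.15 ± 0.18 under abx, -0.10 ± 0.15 under acetate and -0.19 ± 0.17 under abx_and_acetate (unadjusted p = 0.288). Over treatments the fold was -0.14 ± 0.08 (unadjusted p = 0.107, limma adjusted p = 0.957), and -0.22 without all libraries in doubt (unadjusted p = 0.0298, adjusted p = 0.611) or -0.18 without KO_acetate 1 (unadjusted p = 0.017, adjusted p = 0.902). It was -0.11 without KO_control 1 (unadjusted p = 0.198) and -0.12 without the libraries of intermediate Shank3 (unadjusted p = 0.197). In control, the fold was -0.01 without WT_control 1 and -0.20 without KO_control 4. Acetate and abx gave folds of -0.06 to 0.07 within a genotype, the smallest in size of the 10 genes.

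After group means and sex were removed, the within-group SD was 0.416 for Gfap and 0.317 for Gjb6 on the log2 scale. That was above 98.5% and 95.6% of the genes of similar mean level. Gja1 (0.22), Aqp4 (0.274), Slc7a10 (0.287) and S100b (0.253) lay above 90.3% to 93.6%. Slc1a3 (0.152), Aldoc (0.163) and Aldh1l1 (0.185) lay above 64.9%, 69.3% and 82.5%. Slc1a2 (0.161) lay above 42.9% of only 14 genes of its level.

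The 10 genes moved together within groups. Over 35 libraries and after removal of group means and sex, 43 of 45 pairs had a positive Pearson r, with a median of 0.533. By a permutation test with 100000 resamples and Benjamini-Hochberg adjustment over the 45 pairs, 31 pairs had an adjusted p under 0.05 by Pearson's r and 32 by Spearman's rho. The test shuffled residuals over all 35 libraries, although group means and sex had been removed first. Permutation p-values here and below can therefore be too small, which matters most near the threshold. All share the same libraries, tissue punch and scaling to library size. The share of passing pairs among other genes was not computed, so these counts have no background beside them. The median r was 0.502 once the 4 libraries with a Y-linked mismatch were removed and 0.540 without the 3 that stand apart.

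Aldh1l1 and Aldoc were closest, with r = 0.787 and rho = 0.743 (permutation p = 1e-05 for each, the smallest the resamples can give, and adjusted p = 9e-05 and 0.000225). It was 0.731 without the 2 libraries farthest out in Aldh1l1, 0.852 within females and 0.754 within males. Slc7a10 and Aldoc had r = 0.774 and rho = 0.689 (permutation p = 1e-05 and 4e-05, adjusted p = 9e-05 and 0.0003), and r = 0.654 without WT_acetate 3 and the library labelled WT_abx 4. Gja1 and Gfap had r = 0.707 and rho = 0.666 (permutation p = 1e-05 and 5e-05, adjusted p = 9e-05 and 0.0003), with 0.403 within females and 0.826 within males. Gjb6 and Gja1, the connexins, had r = 0.518 and rho = 0.562 (permutation p = 0.00132 and 0.0005, adjusted p = 0.00232 and 0.00121), and r = 0.674 without KO_acetate 1 and the library labelled WT_abx 4.

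Over all 35 libraries S100b had the lowest median r to the other 9 genes, at 0.206. By Pearson's r, 2 of its 9 pairs passed the adjusted threshold. Those were Slc1a3 (r = 0.654 and rho = 0.668, permutation p = 5e-05 and 6e-05, adjusted p = 0.000321 and 0.0003) and Aqp4 (r = 0.49 and rho = 0.492, permutation p = 0.00281 and 0.0028, adjusted p = 0.00468 and 0.00504). By Spearman's rho Aldoc passed too (r = 0.348 and rho = 0.446, adjusted permutation p = 0.0573 and 0.0116). Every S100b pair had a higher r within females than within males by label. With Gja1 it was 0.577 and 0.0251, with Slc1a2 0.575 and 0.0411, with Aldoc 0.64 and 0.198. Its low r was thus mainly that of the males by label, and the difference was not tested. S100b and Gjb6 had r = -0.251 and rho = -0.177 (permutation p = 0.146 and 0.309, adjusted p = 0.188 and 0.34), with 0.154 within females and -0.485 within males. Without the 3 libraries that stand apart that r was 0.035. Without only KO_acetate 1 and the library labelled WT_abx 4 it was -0.129, and leaving out any 1 library gave -0.418 to -0.042. In KO_acetate 1, S100b was at 5.99 and Gjb6 at 4.88, the highest S100b value and the lowest Gjb6 value.

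**Figure D3:**
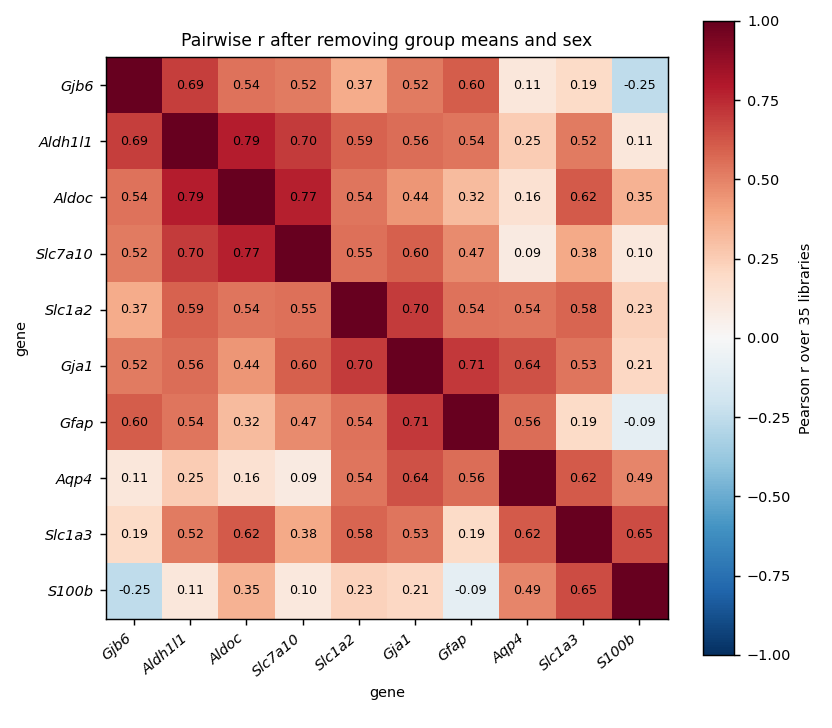
Pearson r between each pair of the 10 genes over 35 libraries, after group means and sex were removed. Both axes list the genes and the colour runs from blue (-1) to red (1). Of the 45 pairs, 43 are above 0, with 0.787 for Aldh1l1 and Aldoc, while S100b runs from -0.251 with Gjb6 to 0.654 with Slc1a3.

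The promoters of 4 genes of this pattern are shown as RefSeq gives them on GRCm38.p6, each the 250 bases before the gene's start, 5′ to 3′ on the gene's strand. Gjb6 (chr14:57133612-57133861, minus strand) and Gja1 (chr10:56377050-56377299, plus strand) are the connexins whose folds differed in size. S100b (chr10:76253586-76253835, plus strand) and Slc1a3 (chr15:8710808-8711057, minus strand) are the gene of lowest median r and its closest partner. None of the 4 windows overlaps the GENCODE span of its gene. Capitals mark the half-site of nuclear factor I (NFI), a family of factors that act in astrocyte development, searched as TTGGC on both strands.
Gjb6: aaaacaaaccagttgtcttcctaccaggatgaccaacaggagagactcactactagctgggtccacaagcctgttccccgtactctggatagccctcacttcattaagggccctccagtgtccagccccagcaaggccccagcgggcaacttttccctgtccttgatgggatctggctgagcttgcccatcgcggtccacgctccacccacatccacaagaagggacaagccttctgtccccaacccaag
Gja1: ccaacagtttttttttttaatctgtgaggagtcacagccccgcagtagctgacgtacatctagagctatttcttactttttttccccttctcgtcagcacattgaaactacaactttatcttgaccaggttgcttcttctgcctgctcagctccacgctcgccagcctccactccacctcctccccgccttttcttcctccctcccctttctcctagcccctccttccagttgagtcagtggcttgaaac
S100b: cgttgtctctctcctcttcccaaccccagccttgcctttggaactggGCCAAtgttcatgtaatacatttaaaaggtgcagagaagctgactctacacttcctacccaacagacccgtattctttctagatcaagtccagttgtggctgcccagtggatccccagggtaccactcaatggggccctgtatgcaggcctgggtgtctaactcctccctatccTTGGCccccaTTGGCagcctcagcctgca
Slc1a3: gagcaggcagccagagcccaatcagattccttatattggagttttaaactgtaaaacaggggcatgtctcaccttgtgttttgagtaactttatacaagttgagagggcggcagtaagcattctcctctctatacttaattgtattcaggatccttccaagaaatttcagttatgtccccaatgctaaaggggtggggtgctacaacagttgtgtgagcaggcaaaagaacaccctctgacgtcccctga
S100b held 3 half-sites in its window and the windows of Gjb6, Gja1 and Slc1a3 held 0. RefSeq windows matched 9 of the 10 genes, with a pair of starts for Aldoc, and 3 of these 10 windows (S100b, Aldoc and Slc1a2) held at least 1 half-site, against 41.5% of 32851 promoters of the same length. The other motifs were also searched on both strands. The letters of the TATA box, TATAAA, stood in 1 of 10 windows (12.4% of all), that of Slc1a3. There they were on the opposite strand only, read as TTTATA in the window shown. The AP-1 motif TGANTCA stood in 1 (6.75% of all), that of Gja1. The STAT motif TTCNNNGAA stood in 2 (7.02% of all) and the SOX motif ACAATG in 0 (10.7% of all). These matches describe letters and not binding.

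The genes whose residual pattern was most like the 10, by mean Pearson r with them over 35 libraries among 14009 other genes with a mean of at least 0 log2 CPM, were led by Glul, glutamine synthetase, with a mean r of 0.683. Acsbg1, an acyl-CoA synthetase, had 0.636 and Mlc1, an endfoot membrane protein, had 0.634. The next were Ezr, Atp1b2 and Slc39a12 (0.621 each), Tril (0.613), Pcdhgc3 (0.612), Htra1 (0.61) and Ppp1r16b (0.608). Of these 10 genes, 7 were in the list of other astrocyte-enriched genes, and Ezr, Pcdhgc3 and Ppp1r16b were not. S100b or Gjb6 was the member with the lowest r for 9 of the 10.

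The 46 other astrocyte-enriched genes, all measured, gave medians close to those of the 10. In KO against WT under abx both medians were -0.16, with 40 of 46 genes below 0 (49.7% of all genes), while without the 3 libraries that stand apart the 46 had -0.08 with 33 below. In acetate against control in KO the 46 had a median of -0.17, with 40 below 0, 0 called, and 1 higher and 10 lower at an unadjusted p under 0.05, beside 50.4% of all genes below 0 and 13% with such a p in either direction. Without KO_control 1 the median was -0.14, with 39 below 0 and 1 higher and 5 lower at that p. The phagocytic receptor Mertk was at -0.54 ± 0.14 (unadjusted p = 0.000356, limma adjusted p = 0.205) and the protease Htra1 at -0.46 ± 0.14 (unadjusted p = 0.00313, adjusted p = 0.226). In abx_and_acetate against control in WT the median was -0.14, with 42 of 46 below 0 (49.9% of all genes). Those of smallest p were S1pr1 at -0.30 ± 0.12 (unadjusted p = 0.0194) and Ntsr2 at -0.30 ± 0.13 (unadjusted p = 0.0257). Of all genes, 14.4% had an unadjusted p under 0.05 in that comparison. In abx_and_acetate against abx in WT the median of the 46 was -0.15 with 44 of 46 below 0 (50.7% of all genes), and -0.07 with 39 below without the 3 libraries that stand apart. The 46 genes share their libraries and can vary together, so these counts do not treat each gene as a separate observation.

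Per library, the score of the 10 genes ran from -0.274 in KO_abx 1 to 0.354 in WT_abx 1. Group means were 0.0919 ± 0.0963 in WT_control and 0.115 ± 0.183 in KO_control (SD), and -0.0955 ± 0.0524 in KO_acetate, whose 5 libraries all lay below 0. WT_abx was the most uneven group, with scores of 0.354, -0.238, -0.141 and 0.349. The 12 neuron markers had a median log2 fold of 0.07 in acetate against control in KO, with 7 above 0. Without KO_acetate 1 that median was 0.02, with 6 above 0. Without the 3 libraries that stand apart it was -0.02, with 5 above 0. With all libraries, the 14 oligodendrocyte markers all lay above 0 in acetate against control in KO (median 0.46). Their scores were -0.555 to 0.603 in KO_control and -0.81 to 1.81 in KO_acetate. In KO against WT under acetate they all lay above 0 too (median 0.77), 9 with an unadjusted p under 0.05 (5.97% of all genes). Without KO_acetate 1, 0 of them had such a p in that comparison (median 0.41), and in acetate against control in KO their median was 0.11, with 13 of 14 above 0. Their part in the astrocyte folds was not tested.

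**Figure D4:**
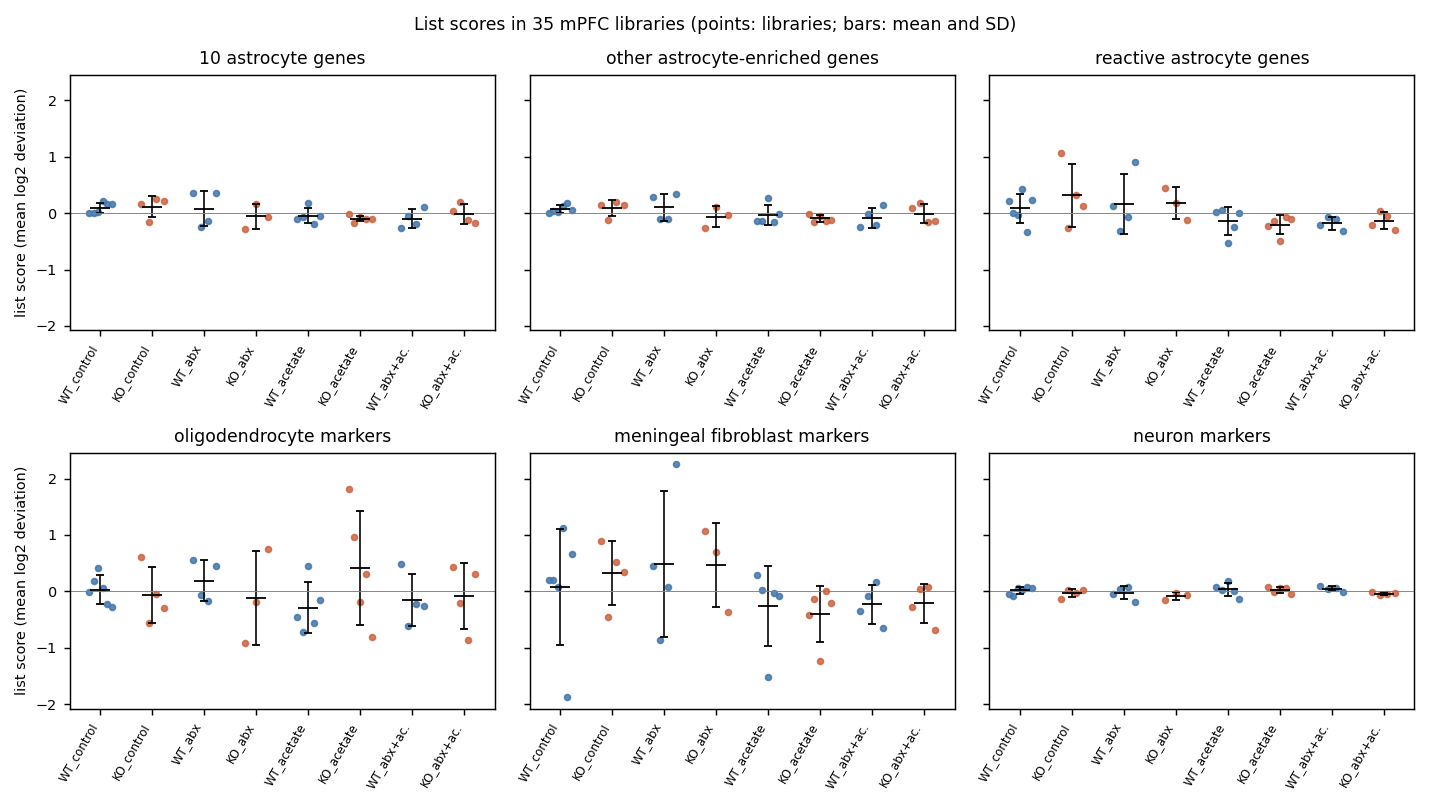
Score of 6 gene lists (y axis, mean log2 deviation of the list's genes from their average over libraries) in the 8 groups, with WT libraries in blue, KO libraries in orange, and bars at the mean and SD. The 10 astrocyte genes and the other astrocyte-enriched genes spread over a narrow band, -0.274 to 0.354 for the 10, while the oligodendrocyte score of KO_acetate 1 stands at 1.81.

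Across libraries, the 10 genes were set against the oligodendrocyte and the neuron score, 20 relations in all, with residuals after group and sex. For Gfap and the oligodendrocyte score r was 0.453 and rho 0.528 (permutation p = 0.00664 and 0.00129, adjusted p = 0.0797 and 0.0258), and r was 0.478 without WT_abx 1 and WT_abx 2. Within females by label it was 0.359 and within males by label 0.501. For Gja1 r was 0.443 and rho 0.464 (permutation p = 0.00797 and 0.0058, adjusted p = 0.0797 and 0.058), with 0.213 within females and 0.57 within males. Gjb6 had r = -0.00702 with the oligodendrocyte score and -0.371 with the neuron score (rho = 0.171 and -0.311, adjusted permutation p = 0.968 and 0.184 for r). For S100b, r with the oligodendrocyte score was 0.219 and -0.0272 without KO_acetate 1 and the library labelled WT_abx 3, so it rests on them. None of the 20 had an adjusted p under 0.05 by Pearson's r.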

How the data were processed

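Total RNA from mPFC punches of 35 libraries was sequenced as paired ends from a directional kit. The authors deposited 1 matrix of log2 CPM, and limma appears in the submitters' processing notes without a version. Aligner, counter, strand setting and build were not given in the sources used here. Inverting the values with the offset of 0.5 gave whole reads for 100% of values (tolerance 0.01), from which effective library sizes (median 22.1 M reads) were taken.

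Folds came from limma 3.58.1 in R 4.3.3: 8 group means plus labelled sex in 1 fit of 35 libraries, eBayes with trend, two-sided, Benjamini-Hochberg over 14870 genes, threshold 0.05. Folds are on the log2(CPM) scale. Correlations used residuals after group and sex. The scripts were tested on simulated data. RIN was 8.8 to 9.3. The members and lists were chosen with earlier results of these data known. All 10 members were named with their levels, per comparison the 2 of smallest p, and of each other list the 2 of smallest p. Other members' folds were added after their values were seen. Alternatives covered sex, RIN, scaling, pseudocount, low values, weights and left-out libraries. Leaving out the 3 libraries that stand apart or all in doubt, and every left-out value of a gene list, was chosen after seeing the data. Some items are not reported here.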

Additional observations from a re-analysis of the deposited data

Results flagged for a closer look

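In 7 of 70 groups of 4 to 6 libraries (10 genes in each of 7 groups), 1 library lay far from the rest for its gene, where chance flags about 1 in 20 groups. All values are log2 CPM. Of the 7, 3 were in WT_acetate 3: Aldh1l1 at 6.49 (the rest 6.02 to 6.12), Slc7a10 at 5.84 (4.81 to 4.98) and Aldoc at 10 (9.38 to 9.54). WT_acetate 3 also had the highest score of the 12 neuron markers (0.192) and the lowest of the choroid plexus markers (-1.58), whose part was not tested. Aqp4 lay at 6.73 in KO_acetate 1, against 6.11 to 6.24 in the rest of its group, in the library with the striatal score of 2.92. S100b lay at 5.04 in the library labelled WT_abx 3, against 5.59 to 5.69. Slc1a2 lay at 11.49 in WT_control 5, against 11.26 to 11.33, and Gfap at 6.41 in WT_abx_and_acetate 3, against 6.23 to 6.26.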

How the results depend on the processing

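Over 47 settings, the count of the 10 genes called was 0 in every alternative run, and 34 of 1698 alternative values had the opposite sign to the reported value. These were 27 medians of the 10 genes, 2 correlations and 5 folds of single genes. The 1698 also hold the counts of genes called and the alternatives to the genotype median in control, reported as 0.000. Neither kind could change sign by this count, and that median ran from -0.018 to 0.077. Gjb6 in abx_and_acetate against abx in KO went from -0.19 to 0.04 when only the compared groups were fitted, and from -0.47 to 0.03 over fits leaving out 1 library, the latter without KO_abx replicate 2. Slc1a2 in the same comparison went from 0.08 to -0.02 with quantile normalization, and from -0.03 (without KO_abx replicate 1) to 0.17 over fits leaving out 1 library. Slc1a2 in the genotype by abx_and_acetate interaction went from -0.16 to 0.01 with quantile normalization. The cause was not tested. Gjb6 in acetate against control in KO ran from -0.82 to -0.38, with an unadjusted p under 0.05 in 18 of 18 alternatives. Other scalings moved the median of all genes by -0.005 to 0.015. The count tests planned on recovered reads, edgeR and DESeq2, were not run, since the deposited values are on a log2 scale, and a fit of only the compared groups was not made for the genotype difference over treatments. No paired analysis was possible because the labels carry no replicate numbers. Groups held 3 to 6 libraries, and the 10 genes had at least 498 reads in each library.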
